A study of Homo sapiens with 6 samples.

Results

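The 5 genes described here restrain complement or serine proteases, or sense them: CD46, CD59, F2R, TFPI and SERPINA1. They were measured in HMC3 cells, an established human microglial cell line. They were chosen by gene symbol, with their difference between the groups already known, and all 5 were among the 5117 genes of the count table. The table holds only genes with an adjusted p-value of at most 0.05 in the authors' own comparison, so each member had to differ to be there. Genes outside the table were not analysed here.

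Messenger RNA was sequenced from 3 libraries of cells given C1s-CM and from 3 libraries given CM without C1s, titled FLAG and called control CM here. All 6 libraries came from wild-type HMC3 cells kept in MEM with 10% FBS. C1s is a serine protease of the first complex of classical complement activation. The study's title names it beside immunosuppression and microglial metabolism in glioblastoma. The labels do not say how CM was made, for how long cells were treated, or whether libraries came from separate cultures, so errors between libraries may be technical. Counts in the table summed to between 12730766 and 14961744 per library, which is part of each library and not its depth. Defining microglial markers could not be used to check the labelled cell type, since only 1 of the 15 listed had a row. No listed marker of hepatocytes, endothelium, platelets and red cells, neurons or astrocytes and glioma had a row, while 4 of 11 fibroblast and pericyte markers did, with a summed level of 6142 to 6204 CPM in C1s-CM and 5707 to 5847 CPM in control CM. Their part in the results below was not tested.

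Complement is a cascade of plasma proteases that deposits fragments on cells and ends in a membrane pore, and coagulation is a parallel cascade that ends in thrombin and fibrin. Cells guard themselves with membrane proteins that inactivate deposited fragments or block the pore, and secrete inhibitors that trap the proteases. CD46 (membrane cofactor protein) helps factor I to cut deposited complement fragments, and CD59 (protectin), held by a lipid anchor, stops the pore from forming. F2R encodes the thrombin receptor PAR1, which is switched on when a protease cuts its outer end. TFPI encodes tissue factor pathway inhibitor, which blocks the start of coagulation, and SERPINA1 encodes alpha-1 antitrypsin, a secreted inhibitor of neutrophil elastase made mostly by hepatocytes and also by macrophages.

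The levels of all 5 genes were lower in C1s-CM than in control CM in every library, by 13.9% for CD59 up to 39.7% for SERPINA1. Such a separation, with C1s-CM lower, was found for 48.3% of the 5116 genes tested, so it does not set the members apart. For CD46 and TFPI the size of the difference was near that of other genes whose transcripts have a like content of G and C. The difference of CD46, F2R and TFPI shrank or turned when GC content was corrected for. CD59 was near the median of its decile of GC content, but that decile is wide (43.7 to 49.4%) and CD59 lies at 48.6%. F2R, in the same decile at 44.4%, differed from its median by -0.13, at rank 125 from the lowest of 511 genes. Corrected with its short representative transcript, the difference of CD59 stayed near its size. It turned with the longest transcript or all exons joined. SERPINA1 was lower although genes of its GC content were mostly higher, and its difference was as large after the correction. These values chose the genes and are given as a description, without a test. In bulk RNA, fewer cells with a transcript and less of it per cell cannot be told apart.

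CD46 was counted 1624, 1897 and 1835 times in the control libraries and 1248, 1326 and 1303 times in C1s-CM. On the CPM scale (each count over the library's total in the table, adjusted for composition by TMM and multiplied by a constant), it stood at 123, 134 and 126 in control CM and at 91.4, 93.0 and 95.7 in C1s-CM. The 2 groups lay 27.4 CPM apart at their nearest libraries. Its mean was 128 ± 5.84 CPM in control CM and 93.3 ± 2.19 CPM in C1s-CM (SD, n = 3 each), and its log2 fold change was -0.45 ± 0.04 (SE). CD46 is expressed on nearly all nucleated human cells, and it is encoded on chromosome 1 (207752057 to 207795513, plus strand, GRCh38), beside the complement receptor genes CR1 and CR2 and the regulator CD55. None of the 6 protein-coding genes within 500000 bases of it had a row.

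CD59 was the most abundant member, with 3102, 3487 and 3605 counts in control CM and 2804, 3043 and 2847 in C1s-CM. Its level was 235, 247 and 247 CPM in control CM and 205, 213 and 209 CPM in C1s-CM, so the groups were separate but close. The means were 243 ± 6.78 and 209 ± 4.00 CPM (SD, n = 3 each), and the log2 fold change of CD59 was -0.22 ± 0.03 (SE), the smallest of the 5. CD59 is encoded on chromosome 11 (33703010 to 33736491), minus strand. Another annotated protein-coding gene, AL049629.2, overlaps it on the same strand (33698261 to 33722467), so that reads could belong to either. Overlaps are annotated for other members too. The pseudogene CDCA4P4 overlaps CD46 on the same strand, and the antisense genes AC025188.1 and AC007319.1 overlap F2R and TFPI.

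F2R was counted 820, 858 and 929 times in control CM and 668, 662 and 643 times in C1s-CM. At 62.2, 60.7 and 63.6 CPM against 48.9, 46.4 and 47.2 CPM, the libraries of a group differed little and the groups lay 11.8 CPM apart. The means were 62.2 ± 1.45 and 47.5 ± 1.28 CPM (SD, n = 3 each), with a log2 fold change of -0.39 ± 0.05 (SE). F2R is encoded on chromosome 5 (76716043 to 76735781, plus strand). Of the other 3 receptors of its family, F2RL1, F2RL2 and F2RL3, none had a row, and F2RL1 and F2RL2 are its neighbours on the chromosome.

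TFPI had 219, 254 and 253 counts in control CM and 173, 129 and 179 in C1s-CM. Its control libraries were close together at 16.6, 17.98 and 17.3 CPM, while C1s-CM replicate 2 was lower, at 9.04 CPM, than the other libraries of its group at 12.7 and 13.1 CPM. The means were 17.3 ± 0.689 and 11.6 ± 2.24 CPM (SD, n = 3 each), and the log2 fold change of TFPI was -0.58 ± 0.11 (SE), or -0.42 without C1s-CM replicate 2. Counting error alone would give an SD of 0.918 CPM in C1s-CM. TFPI is encoded on chromosome 2 (187464230 to 187565760), minus strand.

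SERPINA1 was the rarest member, with 131, 125 and 90 counts in control CM and 62, 71 and 74 in C1s-CM. Its level in control CM was 9.93, 8.85 and 6.17 CPM, and in C1s-CM 4.54, 4.98 and 5.44 CPM. Here the spread lay in the control libraries: control CM replicate 3 was only 0.730 CPM above the highest C1s-CM library, less than the SD of 0.775 CPM that counting error gives in control CM. The means were 8.31 ± 1.94 and 4.98 ± 0.448 CPM (SD, n = 3 each). The log2 fold change of SERPINA1 was -0.73 ± 0.16 (SE), and it ran from -0.91 without control CM replicate 3 to -0.59 without control CM replicate 1. SERPINA1 is encoded on chromosome 14 (94376747 to 94390693), minus strand, within a cluster of serpin genes. Of 19 protein-coding genes within 500000 bases 3 had a row, none of them a serpin.

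**Figure D1:**
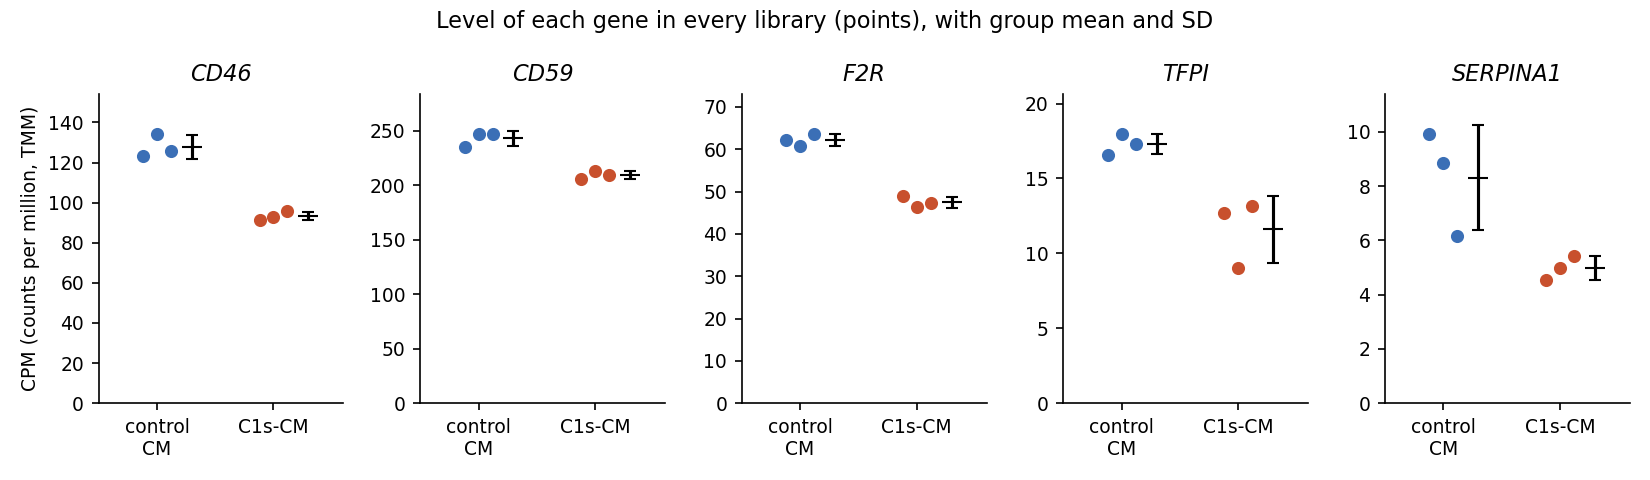
Level of CD46, CD59, F2R, TFPI and SERPINA1 in CPM (TMM-scaled, linear axes from 0) in the 3 control CM and 3 C1s-CM libraries; points are libraries, and the dash with bars is the mean and SD. The groups do not overlap for any of the 5, as for 48.3% of the 5116 genes tested with C1s-CM lower. The gap is smallest against the spread for SERPINA1, where control CM replicate 3 is at 6.17 CPM and the highest C1s-CM library at 5.44 CPM.

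In edgeR's quasi-likelihood test across the whole table, all 5 members passed a Benjamini-Hochberg adjusted p of 0.05, as did 99.4% of the 5116 genes tested; 48.5% of all genes passed as lower. Groups that did not overlap, with C1s-CM lower, were likewise found for 48.3% of genes, so neither count sets the members apart. In the authors' deposited table the members ranked from 612 (CD46, adjusted p = 5.66e-12) to 3784 (SERPINA1, adjusted p = 0.00747) by p-value, with CD59 at 2199, F2R at 1864 and TFPI at 3221. The authors' deposited table gave log2 fold changes of -0.42 for CD46, -0.18 for CD59, -0.35 for F2R, -0.54 for TFPI and -0.70 for SERPINA1. With total counts as the only scaling, the median log2 fold change of all genes fell by 0.13, and the members moved with it, CD46 to -0.58, CD59 to -0.34, F2R to -0.51, TFPI to -0.70 and SERPINA1 to -0.85. Relative to the median of all genes, CD46 was at -0.53 and SERPINA1 at -0.81 under both scalings.

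Compared per kilobase of the representative transcript, the order of levels was the same in both groups: CD59, CD46, F2R, TFPI, SERPINA1. The level in control CM was 213 CPM per kilobase for CD59, 39.0 for CD46, 16.3 for F2R, 4.45 for TFPI and 2.35 for SERPINA1. Neighbours in this order were separated in every library. Among the genes of the table, the mean level per kilobase of CD59 was above that of 90.9% of genes and that of SERPINA1 above 6.6%. The order depends on which transcript is taken: with the longest transcripts CD59 had 31.8 CPM per kilobase, CD46 and F2R 16.3 each, TFPI 2.25 and SERPINA1 2.35 in control CM. The longest transcripts of CD46 (7826 bases, a processed transcript) and TFPI (7690 bases, a retained intron) are not annotated as protein-coding.

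Within a library, the ratio of 2 members' counts does not depend on scaling. CD59 had 1.91, 1.84 and 1.97 counts for each count of CD46 in control CM and 2.25, 2.30 and 2.19 in C1s-CM, with no overlap. CD59 was also higher against F2R, with 4.20, 4.60 and 4.43 counts for each count of F2R in C1s-CM and 3.78, 4.06 and 3.88 in control CM. CD46 and F2R kept overlapping ratios, 1.98, 2.21 and 1.98 in control CM and 1.87, 2.00 and 2.03 in C1s-CM. The ratio of F2R to TFPI, of TFPI to SERPINA1 and of CD59 to SERPINA1 overlapped between the groups as well. How often the ratios of other pairs of genes overlap was not counted, so no overlap does not set a pair apart. These ratios are free of library scaling but not of the correction for GC content given below: with offsets of the representative transcript the order turned, with CD59 at -0.26, CD46 at 0.049 and F2R at -0.095 on the log2 scale.

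The members also differ in transcript composition. The representative transcript in GENCODE 29 had a GC content of 35.1% for TFPI (3885 bases), 38.3% for CD46 (3278 bases), 44.4% for F2R (3821 bases), 48.6% for CD59 (1143 bases) and 54.0% for SERPINA1 (3532 bases). The low values lay in the 3′ untranslated regions: 33.3% in TFPI over 2678 bases, 33.4% in CD46 over 1925 bases and 37.9% in F2R over 2281 bases, against 38.8%, 43.2% and 49.9% in their coding parts. In SERPINA1 the 3′ untranslated region had 53.6% over 1705 bases and the coding part 52.2%. For CD59 the answer varied with the transcript, since the protein-coding ones ran from 584 to 7631 bases and from 45.5 to 50.4% GC. All 5 genes had several annotated start sites, from 2 in F2R to 14 in SERPINA1, and counts per gene do not separate them.

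All genes of the table, split by transcript GC content into deciles, give the setting for these values. In the decile that holds TFPI (31.8 to 37.7% GC, 512 genes), 99.2% of genes were lower in C1s-CM with a median log2 fold change of -0.59, and TFPI differed from that median by 0.015. In that of CD46 (37.8 to 39.5%, 511 genes) 99.6% were lower with a median of -0.51, and CD46 was 0.060 above it. CD59 and F2R share the decile from 43.7 to 49.4%, where 78.9% were lower with a median of -0.26. CD59 was 0.044 above that median and F2R differed from it by -0.13. Medians changed steeply here, from -0.38 in the decile below to 0.17 in the one above. CD59 (48.6%) lies near the upper edge and F2R (44.4%) near the lower. With offsets on the GC content of the representative transcript alone, CD59 was at -0.19. The decile of SERPINA1 (49.5 to 55.4%) had a median of 0.17, with 89.2% of 511 genes higher, and SERPINA1 differed from it by -0.90, at rank 2 from the lowest of the 511. Among the 2525 genes at or above 50% GC, 50 were lower in C1s-CM, and 4 of these, SERPINA1 included, were as low as SERPINA1. Among the 18 genes of this decile with a mean below 10 CPM, as SERPINA1 has, 6 were lower and the median was 0.47. At so low a level only a large difference passes the adjusted p that the table requires. The size and rank of SERPINA1 may reflect that filter. Other lower genes of this decile and level had values of -0.76 (FRG1HP), -0.61 (VASH2) and -0.60 (ZFHX3).

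**Figure D2:**
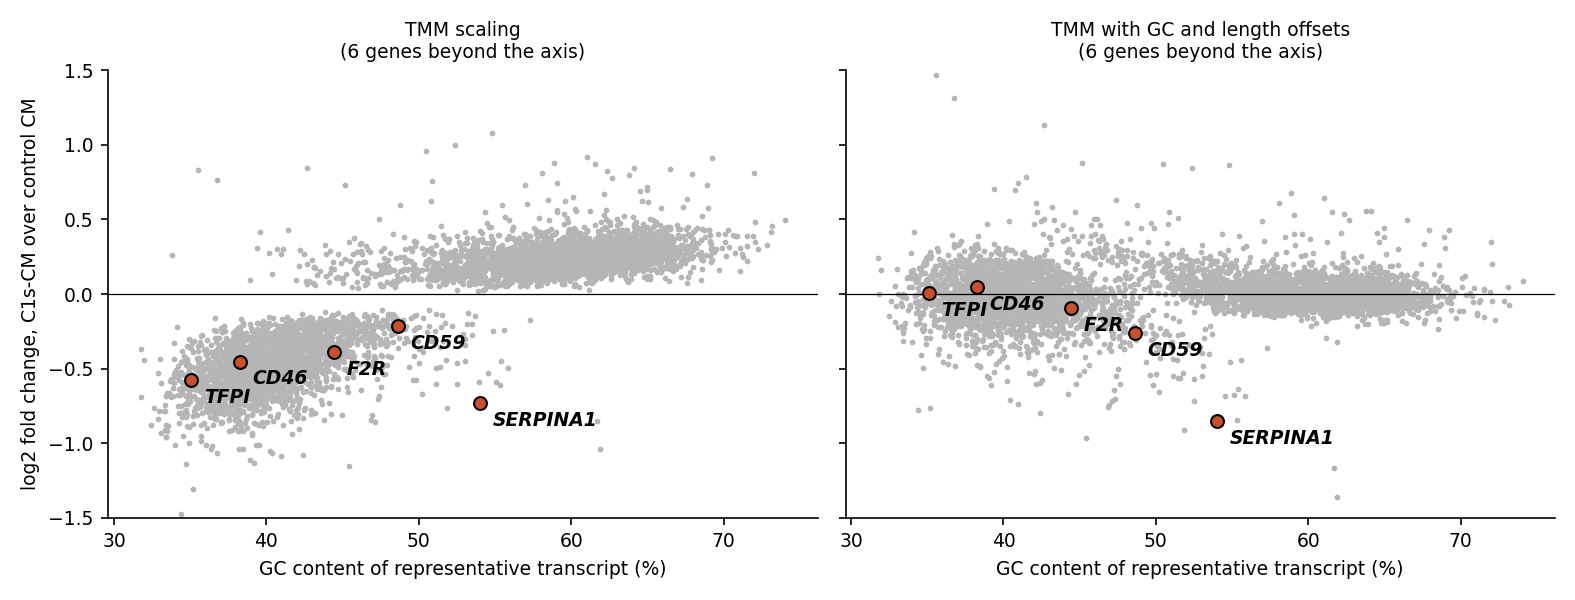
Log2 fold change of each gene of the table (grey; C1s-CM over control CM) against the GC content of its representative transcript in percent, with the 5 members in red, under TMM scaling (left) and with offsets for GC content and length (right). TFPI, CD46, F2R and CD59 lie within the cloud of genes of like GC content on the left, and SERPINA1 (54.0% GC) differs by -0.90 from the median of its decile; 6 genes in each panel fall outside the axis.

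With offsets per library that remove the trend on GC content and length, the members took different courses. CD46 had 106, 111 and 104 CPM in control CM and 107, 111 and 114 CPM in C1s-CM, and its log2 fold change turned to 0.049 ± 0.04 (SE). TFPI, at 13.9, 14.3 and 14.2 CPM in control CM and 15.0, 11.5 and 16.1 CPM in C1s-CM, had 0.0083 ± 0.11. F2R was still separate, at 56.9, 54.5 and 57.1 CPM in control CM and 53.8, 51.7 and 52.3 CPM in C1s-CM, with a log2 fold change of -0.10 ± 0.05. Groups of CD46 and TFPI overlapped after the offsets, and those of F2R, CD59 and SERPINA1 did not, where 18.7% of 5112 genes were separate with C1s-CM lower. The offsets were fitted on these selected genes and would also take out a biological difference that runs with GC content.

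SERPINA1 after the offsets had 10.2, 9.31 and 6.46 CPM in control CM and 4.37, 4.77 and 5.19 CPM in C1s-CM, a log2 fold change of -0.85 ± 0.16 (SE). Under the 4 kinds of offset that were tried its value lay between -0.93 and -0.85, as low as or lower than without them. CD59 after the offsets had 237, 250 and 254 CPM in control CM and 206, 207 and 205 CPM in C1s-CM, with -0.26 ± 0.03. That value belongs to its representative transcript of 1143 bases: with the longest transcript, of 7631 bases, the log2 fold change of CD59 turned to 0.073, and with all exons joined to 0.033. The direction for CD59 after correction thus depends on the transcript assumed, which gene counts do not show. Over the whole table, 11.2% of genes passed adjusted p 0.05 as lower in edgeR's test after the offsets of the representative transcript.

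**Figure D3:**
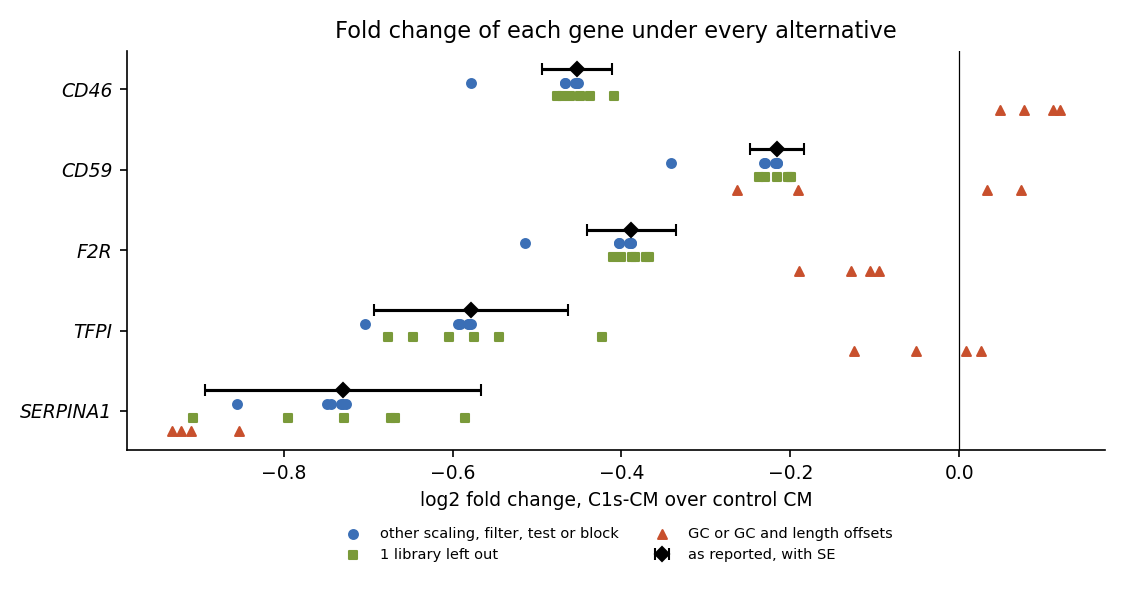
Log2 fold change (C1s-CM over control CM) of each member as reported (black, bars are the SE), with another scaling, filter, test or replicate block (blue), without 1 library (green) and with GC or GC and length offsets (red). SERPINA1 stays between -0.93 and -0.59 throughout, whereas with offsets CD46 lies between 0.049 and 0.12, TFPI between -0.12 and 0.025, and CD59 on both sides of 0.

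Promoter sequence was looked at because the members were lower together, to see whether the GC content of the transcript is shared by the region that starts it. RefSeq windows of the 250 bases before a start site (GRCh38.p14) were found for 4 of the 5 members; F2R had no entry. Those shown are the window of CD46 and of CD59 with the most GC boxes, that of TFPI, and both of SERPINA1, whose upstream start is known from monocytes and macrophages and whose downstream start is that of hepatocytes. Letters are 5′ to 3′ on the gene's strand, and capitals mark matches to the motifs named in the next paragraph.
CD46, chr1:207751804-207752053, plus strand: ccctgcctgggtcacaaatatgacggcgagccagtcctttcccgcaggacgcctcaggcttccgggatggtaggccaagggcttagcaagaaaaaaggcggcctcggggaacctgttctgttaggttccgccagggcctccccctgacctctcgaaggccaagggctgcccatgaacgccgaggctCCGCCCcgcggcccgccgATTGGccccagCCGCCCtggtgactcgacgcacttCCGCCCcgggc
CD59, chr11:33736424-33736673, minus strand: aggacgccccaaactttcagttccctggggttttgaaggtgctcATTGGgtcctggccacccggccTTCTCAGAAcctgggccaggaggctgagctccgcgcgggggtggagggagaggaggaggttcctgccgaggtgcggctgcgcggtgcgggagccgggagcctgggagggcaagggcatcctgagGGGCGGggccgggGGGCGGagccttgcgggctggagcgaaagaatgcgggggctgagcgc
TFPI, chr2:187554436-187554685, minus strand: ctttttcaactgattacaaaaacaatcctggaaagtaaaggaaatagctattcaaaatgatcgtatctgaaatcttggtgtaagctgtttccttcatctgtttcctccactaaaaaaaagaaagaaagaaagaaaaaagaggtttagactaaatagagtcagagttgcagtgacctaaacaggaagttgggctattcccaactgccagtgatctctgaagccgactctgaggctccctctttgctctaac
SERPINA1 upstream, chr14:94390636-94390885, minus strand: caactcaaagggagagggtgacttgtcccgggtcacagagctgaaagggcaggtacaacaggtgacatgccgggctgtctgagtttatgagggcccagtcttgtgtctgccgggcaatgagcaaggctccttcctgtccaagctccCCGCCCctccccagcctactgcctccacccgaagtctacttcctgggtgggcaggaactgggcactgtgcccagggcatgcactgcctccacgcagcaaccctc
SERPINA1 downstream, chr14:94388603-94388852, minus strand: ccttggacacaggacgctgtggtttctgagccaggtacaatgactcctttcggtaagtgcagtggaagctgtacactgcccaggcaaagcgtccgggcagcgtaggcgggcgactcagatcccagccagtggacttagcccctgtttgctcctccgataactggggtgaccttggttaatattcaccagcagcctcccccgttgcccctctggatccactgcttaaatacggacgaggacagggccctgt

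The windows shown for CD46 and CD59 are rich in GC, 67.6% with 21 CpG steps and 70.4% with 18, although the CD46 transcript has only 38.3%. The other 3 windows of CD59 have 62.0%, 43.6% and 52.0% GC, and the window with 52.0% (1 CpG step, 1 AP-1 site) lies just before the start of its representative transcript. That of TFPI has 38.4% with 2 CpG steps, with 10.1% of all windows lower, and is close to its transcript. The SERPINA1 windows have 61.6% upstream and 58.0% downstream, where the median of 35116 windows is 58.0%. Motifs were searched on both strands: the GC box GGGCGG, found in 42.6% of all windows of this length, the CCAAT box CCAAT (32.0%), the TATA box TATAAA (10.7%), the AP-1 site TGACTCA (4.2%), the cyclic AMP response element TGACGTCA (1.6%), the interferon-type GAS element TTCNNNGAA (6.6%) and the E-box CACGTG (6.3%). CD46 holds 3 GC boxes and 1 CCAAT box, CD59 2 GC boxes, 1 CCAAT box and 1 GAS element, and SERPINA1 upstream 1 GC box. The windows of TFPI and of SERPINA1 downstream hold none of these letters, and no motif was shared by all the windows shown. No matches overlapped in the windows shown.

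The members were then set within their pathways, using 10 lists with 193 genes, of which 51 had a row. Of these 51, 24 passed the test as higher in C1s-CM and 25 as lower (edgeR's quasi-likelihood test, adjusted p of 0.05), against 50.9% and 48.5% of all genes tested, and the median log2 fold change was 0.017 against 0.080 for all genes. The 5 members are among the 25, chosen with their lower values known, and the other 46 genes had values above 0 for 26 and below 0 for 20. With total counts as the only scaling the split was 7 higher and 28 lower, against 1336 and 2517 for all genes. With GC and length offsets 14 were called, 4 higher and 10 lower, where 14.4% and 11.2% of all genes were. Of the 25 list genes at or above 50% GC, 24 had values above 0, SERPINA1 being the exception, and of the 26 below 50%, 24 had values below 0, with TPST2 and HSPA5 the exceptions.

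Complement genes were few. Of 16 listed regulators, 3 had a row and all passed as lower, where 48.5% of all genes tested did. CD46 and CD59 are among the 3, chosen with their lower values known. With offsets 1 of the 3 passed as lower, and CD46 was at 0.049 and CD59 at -0.26. Of 27 components only CFD, the protease factor D of the alternative pathway, had a row, and it rose by 0.45 ± 0.09 (0.11 with offsets). Of 12 receptors LRP1, a scavenger receptor, rose by 0.18 ± 0.03 but was at -0.047 with offsets. CALR, which binds C1q at the cell surface, had 0.017 ± 0.026 and did not pass. With offsets CALR was at -0.13 and passed as lower, where 11.2% of all genes did. C1S, C1R, SERPING1 (the inhibitor of C1s) and CD55 had no row.

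Of 25 coagulation factors and the proteins that process them, 7 had a row, 5 higher and 2 lower. Over all genes tested 50.9% passed as higher and 48.5% as lower. LMAN1 and MCFD2, which together form the cargo receptor that carries factors V and VIII out of the endoplasmic reticulum, had log2 fold changes of -0.65 ± 0.04 and -0.24 ± 0.04 (SE) and both fell. With offsets LMAN1 was at -0.13 and MCFD2 at 0.040. VKORC1, the vitamin K reductase that is the target of warfarin, rose by 0.30 ± 0.05 (0.0063 with offsets). Of 15 anticoagulant proteins 3 had a row. PROS1, which encodes protein S, a cofactor of TFPI, fell by 0.51 ± 0.10, from 15.2 to 10.7 CPM, beside TFPI itself, and NDST1, a heparan sulphate sulphotransferase, rose by 0.14 ± 0.03. With offsets PROS1 was at -0.070, TFPI at 0.0083 and NDST1 at 0.033.

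Of 14 fibrinolysis genes 4 had a row, 3 higher and 1 lower, where 50.9% and 48.5% of all genes were. SERPINE2, the thrombin inhibitor protease nexin-1, fell by 0.28 ± 0.06, and S100A10, the partner of annexin A2 in binding plasminogen, rose by 0.17 ± 0.03. With offsets SERPINE2 was at -0.17 with the representative and 0.17 with the longest transcript, and S100A10 at -0.069. Of 22 serpins 4 had a row, 2 lower and 2 higher, beside the same shares. SERPINA1 and SERPINE2 were lower, and SERPINH1 rose by 0.10 ± 0.03. SERPINH1, a collagen chaperone and no protease inhibitor, turned to -0.030 with total counts as the only scaling and to -0.14 with offsets. SERPINA1 had the lowest value of the 4 with offsets as well as without.

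Of 28 genes of the protease-activated receptors and the G proteins, arrestins and kinases below them, 14 had a row, 6 higher and 8 lower. Among all genes 50.9% were called higher and 48.5% lower. PLCB4, a phospholipase C, fell by 0.55 ± 0.05 (SE). ARHGEF12, a guanine nucleotide exchange factor, fell by 0.45 ± 0.04, and the kinase ROCK2 fell by 0.63 ± 0.07. F2R, at -0.39, was the smallest but one of the 8. With offsets PLCB4 was at -0.022, ARHGEF12 at 0.019, ROCK2 at -0.10 and F2R at -0.10. Of the 14 genes 1 then passed the threshold, where 25.6% of all genes did. The list's transcripts had a median GC content of 43.1%.

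Of 28 genes that make or attach the GPI lipid anchor, on which CD59 depends, 11 had a row, 6 higher and 5 lower. The shares of all genes were 50.9% and 48.5%. GPAA1, a subunit of the transamidase that attaches the anchor, rose by 0.26 ± 0.03, while PIGK, its catalytic subunit, fell by 0.53 ± 0.07 and PGAP1, which remodels the anchor, fell by 0.72 ± 0.10 (SE). With offsets GPAA1 was at -0.026, PIGK at 0.089 and PGAP1 at -0.037. Of 17 genes of the secretion and disposal of alpha-1 antitrypsin, 8 had a row, 1 higher and 5 lower. LMAN1, its cargo receptor, was the first by p, followed by the disposal factor SEL1L (-0.41 ± 0.04) and the mannosidase EDEM3 (-0.86 ± 0.13). With offsets SEL1L turned to 0.13 and EDEM3 was at -0.32. Of the 8 genes 3 then passed as higher and 2 as lower, where 14.4% and 11.2% of all genes did.

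**Figure D4:**
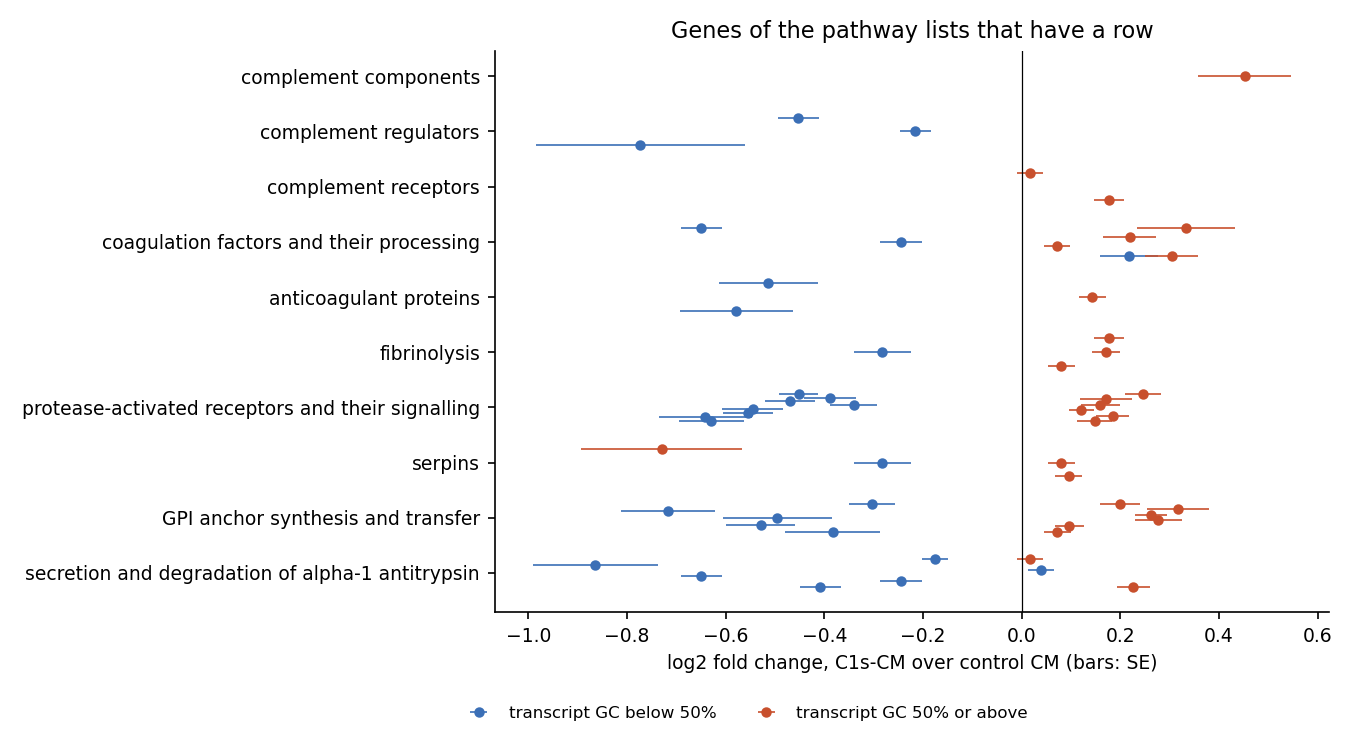
Log2 fold change with SE (C1s-CM over control CM) of the 51 genes with a row in 10 pathway lists, in blue where the representative transcript has less than 50% GC and in red where it has 50% or more; genes on several lists appear in each. SERPINA1 is the only red point below 0. The 3 points of the complement regulators are all below 0, and CD46 and CD59 among them were chosen with their lower values known.

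Profiles across the 6 libraries were compared by the root mean square distance between log2 CPM values centred on each gene's mean, a description in which the difference between the groups weighs most. The 2 nearest genes were ZSCAN12 (distance 0.016) and HCG11 (0.019) for CD46, RPS27L (0.014) and MELK (0.019) for CD59, XPOT (0.013) and USP48 (0.018) for F2R, and UGGT2 (0.053) and UBN2 (0.057) for TFPI. Those of SERPINA1 were ZEB1, a zinc finger transcription factor, at 0.043 and AC011815.1 at 0.13. No member was among the nearest genes of another, the closest being F2R at rank 406 from CD46. ZEB1 was counted 100, 99 and 67 times in control CM and 45, 55 and 54 times in C1s-CM, so that control CM replicate 3 was the lowest control library for it as for SERPINA1. Both genes have few counts, where counting error is large, and ZEB1 was picked as the nearest of all genes. Whether the likeness exceeds what counting error gives was not tested. With a GC content of 39.8%, ZEB1 was at -0.26 with offsets, against -0.78 without.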

How the data were processed

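Libraries were made from poly(A)-selected RNA with random priming and read as pairs, per the labels' protocols. Per the submitters' processing notes FastQC 0.11.9, Trim Galore 0.6.7, HISAT2 2.2.1, DESeq2 1.40.2 and GRCh38 were used. The sources used here do not name the counter, annotation or strand setting, so a gene and one that overlaps it on either strand may share reads. The authors deposited raw counts per gene. The same deposited table holds their log2 fold change. It also holds the authors' p-value, raw and adjusted, and ends at an adjusted p of 0.05.

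Counts were tested with edgeR 4.0.16 (R 4.3.3): filterByExpr (5116 of 5117 genes kept), TMM, group as the only term, quasi-likelihood test, two-sided, Benjamini-Hochberg adjustment over all genes tested, threshold 0.05. The SE is the log2 fold change over the square root of F. CPM values use the table's totals. GENCODE 29 matched 5113 genes. Offsets came from a loess fit per library of log2 CPM (prior count 2) on the GC content and the log2 length of the transcript (span 0.3; 5112 genes). The representative transcript was taken by principal-isoform tag, support level and length. Scripts were tested on simulated counts in which few genes were given a change of their own. The table here holds only selected genes, so that test does not cover its setting. Named genes are the members, the 3 genes of smallest p called in each list, and the 2 nearest profiles of each member; others were named after their values were seen. The members, lists and alternatives were chosen with earlier results of these data known. Some genes of the lists are not reported here.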

Additional observations from a re-analysis of the deposited data

How the results depend on the processing

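Alternatives were other scalings (DESeq2 size factors, total counts), filters (none, at least 50 counts in every library), DESeq2's Wald test, the replicate number as a block, 4 kinds of offset and each library left out. Only total counts and the offsets moved a count of calls by over 1.5 times, and the cause was not tested. SERPINA1 stayed below 0 in all 17 fits and F2R too, while CD59 and TFPI did in 15 each and CD46 in 13. The table holds only selected genes, and nothing shows how genes outside it behaved. TFPI and SERPINA1, at 62 to 254 counts, have the largest errors.

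Leaving out 1 library each gave 4996 to 5051 calls, 2515 to 2570 higher and 2481 lower, 48 to 49 genes of the 10 lists (23 to 24 higher, 25 lower), and log2 fold changes of -0.48 to -0.41 for CD46, -0.24 to -0.20 for CD59, -0.41 to -0.37 for F2R, -0.68 to -0.42 for TFPI and -0.91 to -0.59 for SERPINA1. The deviations of same-numbered libraries from their group means correlated at -0.13, -0.09 and -0.0031. Those of differently numbered libraries correlated at -0.06 to 0.14. No shift shared by same-numbered libraries was seen, but this cannot show whether they were handled together. With the replicate block 5054 genes were called, and the members had -0.45 (CD46), -0.22 (CD59), -0.39 (F2R), -0.58 (TFPI) and -0.73 (SERPINA1).

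With total counts as the only scaling 1336 genes and 7 list genes were higher, CD46 was at -0.58, CD59 at -0.34, F2R at -0.51 and SERPINH1 at -0.030. With GC and length offsets of the representative transcript 1309 genes were called, 734 higher and 575 lower, and 14 list genes, 4 higher and 10 lower. CD46 was then at 0.049, CD59 at -0.26, F2R at -0.095, TFPI at 0.0083, LRP1 at -0.047, MCFD2 at 0.040, S100A10 at -0.069, ARHGEF12 at 0.019, SERPINH1 at -0.14, GPAA1 at -0.026, PIGK at 0.089 and SEL1L at 0.13. With the longest transcript there were 1362 calls, 734 higher and 628 lower, and 16 list genes, 7 higher and 9 lower. That transcript is not protein-coding for CD46 and TFPI. CD46 was at 0.12, CD59 at 0.073, F2R at -0.11, TFPI at -0.12, LRP1 at -0.069, MCFD2 at 0.051, S100A10 at -0.089, SERPINE2 at 0.17, ARHGEF12 at 0.015, SERPINH1 at -0.12, GPAA1 at -0.041, PIGK at 0.052 and SEL1L at 0.12. With the union of exons there were 1447 calls, 768 higher and 679 lower, and 18 list genes, 6 higher and 12 lower. CD46 was at 0.11, CD59 at 0.033, F2R at -0.19, TFPI at -0.051, LRP1 at -0.11, NDST1 at -0.087, S100A10 at -0.042, SERPINE2 at 0.0006, ARHGEF12 at 0.050, SERPINH1 at -0.11, GPAA1 at -0.029, PIGK at 0.11 and SEL1L at 0.11. With offsets on GC content alone there were 1398 calls, 712 higher and 686 lower, and 15 list genes, 4 higher and 11 lower. CD46 was at 0.077, CD59 at -0.19, F2R at -0.13 and TFPI at 0.025. LRP1 was at -0.069, MCFD2 at 0.0064, NDST1 at -0.063, S100A10 at -0.031, SERPINH1 at -0.15, GPAA1 at -0.031, PIGK at 0.080 and SEL1L at 0.090.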

Other observations

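SERPINA1 was in a small company of GC-rich genes that were lower in C1s-CM. In its decile of GC content the other genes with the lowest log2 fold changes were the pseudogene FRG1HP (-0.76 ± 0.16, SE), the transcription factor NFIB (-0.67 ± 0.06), VASH2, which encodes a tubulin carboxypeptidase (-0.61 ± 0.15), the noncoding RNA MAGI2-AS3 (-0.60 ± 0.10) and the transcription factor ZFHX3 (-0.60 ± 0.14). NFIB was the best measured of these, at 48.6 CPM in control CM and 30.5 CPM in C1s-CM. With offsets the values were -0.91 for FRG1HP, -0.66 for NFIB, -0.84 for VASH2, -0.72 for MAGI2-AS3 and -0.55 for ZFHX3, beside -0.85 for SERPINA1. These genes were chosen after their values were seen, and no test was made on them.

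The genes beside the members on the chromosomes did not all move with them. DDX24, IFI27L1 and IFI27L2, within 500000 bases of SERPINA1, were 0.17, 0.25 and 0.44 higher on the log2 scale. Beside CD59, HIPK3 (-0.40), FBXO3 (-0.56) and CAPRIN1 (-0.18) were lower and NAT10 (0.27) was higher, and beside F2R AGGF1 was at -0.66. With offsets DDX24 was at 0.19, IFI27L1 at 0.052, IFI27L2 at 0.10, NAT10 at 0.20, HIPK3 at 0.15, CAPRIN1 at 0.10, FBXO3 at -0.15 and AGGF1 at -0.19.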
